A study of Arabidopsis thaliana with 17 samples.

Results

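The 4 WIND genes of Arabidopsis thaliana, WIND1 (AT1G78080), WIND2 (AT1G22190), WIND3 (AT1G36060) and WIND4 (AT5G65130), were followed after wounding. They were picked by locus identifier, and all 4 were among the 28642 genes of the table. Stranded mRNA sequencing covered 17 libraries of hypocotyls from dark-grown seedlings, which were cut and then kept in darkness on MS-0 plates for 0, 1, 3, 6, 12 or 24 h. There were 3 libraries per time point and 2 at 24 h. The labels give no genotype, ecotype or seedling age, and they do not say whether libraries of a time point came from separate plants, so the p-values cover the spread among libraries only, which may be technical. Uncut hypocotyls held on plates in parallel were not analysed here, so time since cutting and time on the plate cannot be told apart.

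WIND stands for WOUND INDUCED DEDIFFERENTIATION. These genes encode AP2/ERF transcription factors of the DREB A-6 subfamily, also called group I, which bind DNA through a single AP2 domain. WIND1 is known as an activator of callus formation at wound sites. It acts through the cytokinin response, and it directly activates ESR1, a related factor that promotes callus and shoot regeneration. WIND1 is also listed as RAP2.4, and WIND3 has been studied as RAP2.4a, a redox-sensitive regulator of chloroplast antioxidant genes.

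All 4 genes are single-exon genes in the RefSeq annotation of TAIR10.1. WIND1 lies on the plus strand of chromosome 1 from 29364072 to 29366207, with a coding sequence of 1005 bases, and WIND2 on the plus strand of chromosome 1 from 7835781 to 7837411, with 786 coding bases. WIND3 lies on the minus strand of chromosome 1 from 13454496 to 13456336, with 945 coding bases, and WIND4 on the plus strand of chromosome 5 from 26017185 to 26018349, with 840 coding bases. WIND1 and WIND2 were the closest pair, with 74.4% identity over 753 aligned coding bases. Identity was 60.8% between WIND1 and WIND3 and 63.7% between WIND2 and WIND3, and WIND4 shared 52.0% to 57.8% with the other 3. The most conserved stretch of 90 coding bases without gaps lies in the part that encodes the AP2 domain. It is shown to make the family likeness visible and to show how far reads of one gene differ from those of another. Capitals mark the 63 positions at which all 4 genes carry the same base, and the stretch begins at coding base 473 of WIND1, 266 of WIND2, 446 of WIND3 and 356 of WIND4.
WIND1: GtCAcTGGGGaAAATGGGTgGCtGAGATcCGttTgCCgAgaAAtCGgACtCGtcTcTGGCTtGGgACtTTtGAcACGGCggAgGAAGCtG
WIND2: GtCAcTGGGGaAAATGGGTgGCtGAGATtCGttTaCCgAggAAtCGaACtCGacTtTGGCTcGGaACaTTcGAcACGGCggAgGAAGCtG
WIND3: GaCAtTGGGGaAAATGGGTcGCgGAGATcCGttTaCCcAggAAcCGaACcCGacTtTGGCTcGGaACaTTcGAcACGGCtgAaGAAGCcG
WIND4: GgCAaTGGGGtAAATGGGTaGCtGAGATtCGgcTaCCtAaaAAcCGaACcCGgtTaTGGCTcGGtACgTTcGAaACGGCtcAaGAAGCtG
Within it WIND1 differs from WIND2 at 10 positions and from WIND4 at 24. The longest run of identical transcript bases was 46 between WIND1 and WIND2 and 29 between WIND2 and WIND3. None of the sources used here names the read length, the aligner or the rule for reads that match more than 1 gene, and an exchange of reads within the WIND1 and WIND2 pair was not tested.

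Levels are given in RPKM, which divides reads by gene length and by each library's total of mapped reads. They can be compared between genes as far as the lengths used hold. Depth was 7717255 to 7872179 mapped reads in 14 libraries, 11760741 and 11736568 in the 24 h libraries, and 20740957 in 0 h replicate 1. Replicates correlated at 0.975 to 0.992 (Pearson, across genes, which are not independent replicates), and no pair agreed within sampling noise. Of the tissue markers examined, all 5 xylem, 4 phloem and 3 epidermis genes reached 1 RPKM at 0 h. Among shoot apex markers WUS and CLV3 were at or below 0.0747 RPKM in every mean, and STM reached 1.77 RPKM. Root hair markers summed to at most 2.34 RPKM and seed storage markers to at most 11.1 RPKM in any library. A change is the difference of mean log2(RPKM + 1) from limma, with its standard error (SE) and a Benjamini-Hochberg adjusted p-value over the 19656 genes that reached 1 RPKM in at least 2 libraries. It counts as called below 0.05. In bulk tissue fewer cells of a type and less RNA per cell cannot be told apart.

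WIND1 was the most abundant of the 4 at every time point, WIND2 came next, WIND3 was lower, and WIND4 was barely detected. The 3 genes that passed the filter followed 3 different courses. WIND1 was higher than at 0 h at every later time, by 1.38-fold to 1.53-fold. WIND2 was lower at every later time, and reached 0.352 times its 0 h level at 3 h. WIND3 was lower at 1 h only, at 0.32 times the 0 h level, and higher at 24 h only, by 2.11-fold. Each of the 3 also passed the F test for any change over the course, with adjusted p of 1.88e-05 for WIND1, 3.18e-08 for WIND2 and 3.03e-07 for WIND3 (limma), as did 93.2% of all tested genes.

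**Figure D1:**
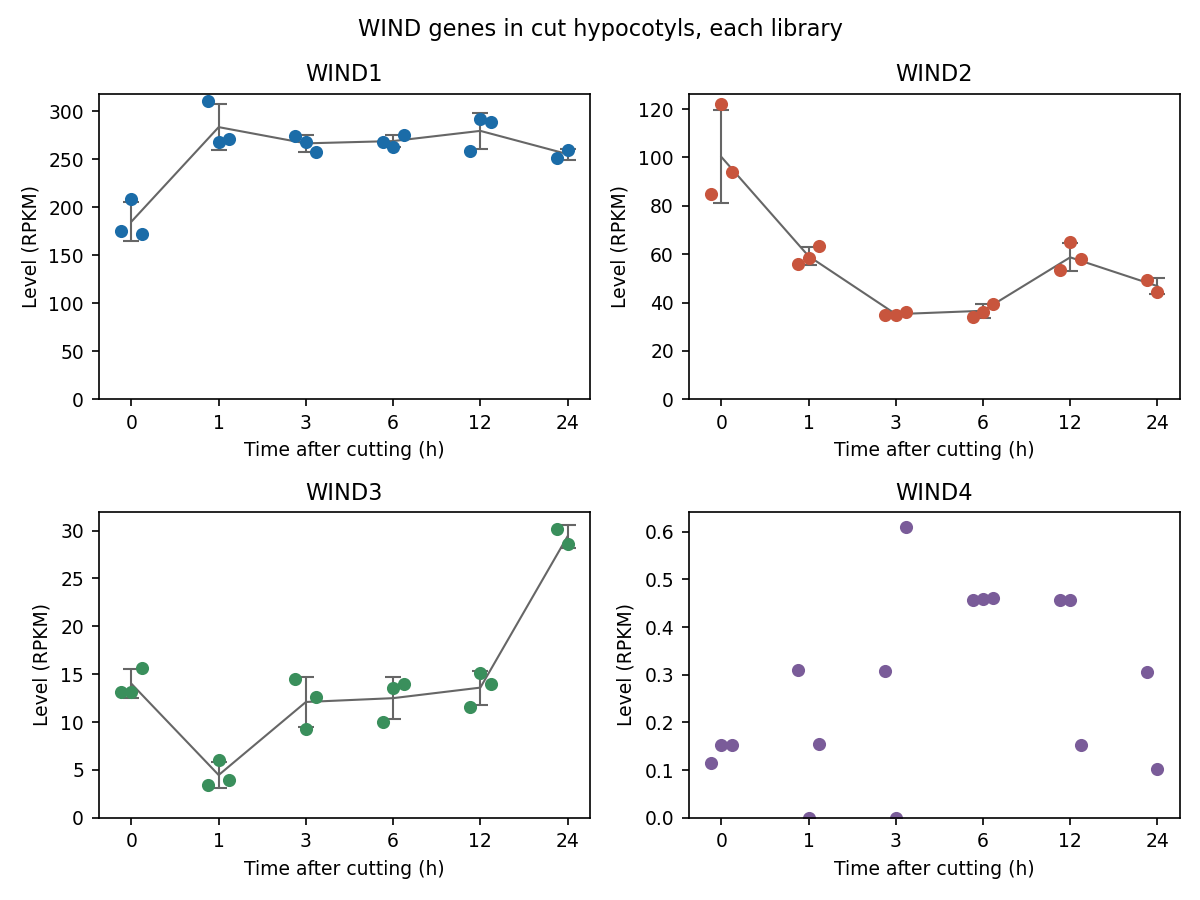
Level in RPKM (vertical axis, from 0, with its own scale in each panel) of the 4 WIND genes in each library (points) by time after cutting in hours, with time points evenly spaced here and in the other plots. Grey lines and bars show the mean and SD of a time point, left out for WIND4. The WIND1 points at 0 h lie below all later ones, the WIND2 points at 0 h above all later ones, and the WIND3 points dip at 1 h and stand highest at 24 h.

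The 0 h libraries held 175, 208 and 172 RPKM of WIND1, those of 1 h held 311, 268 and 271, and those of 3 h held 274, 268 and 257. The 6 h libraries held 268, 263 and 275 RPKM, the 12 h libraries 258, 292 and 289, and the 24 h libraries 251 and 259. Every library after 0 h lay above every 0 h library, and each later time point overlapped with the next. These values rest on 2470 to 6621 reads per library. WIND1 was among the abundant transcripts, with 1.77% of tested genes at or above its mean at 1 h, against 2.44% at 0 h.

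At 1 h WIND1 averaged 283.3 ± 24 RPKM, against 185 ± 19.9 at 0 h (SD, n = 3 each). The change was 0.61 (SE 0.08, limma adjusted p 5.63e-06), in a comparison in which 18.2% of all tested genes were called higher and 54.7% lower. With each library centred on its median, 4909 genes were higher and 6673 lower at 1 h in place of 3573 and 10755. The changes of WIND1 at 3, 6, 12 and 24 h were 0.53 (SE 0.08), 0.54 (SE 0.08), 0.60 (SE 0.08) and 0.47 (SE 0.09), with limma adjusted p between 9.51e-06 and 0.000337. Of all tested genes 27.6%, 30.2%, 34.4% and 36.2% were called higher at these times. The median change of all tested genes was -0.36, -0.12, -0.07, 0.06 and 0.14 at 1, 3, 6, 12 and 24 h. The course of WIND1 after the first hour moved with the scaling. With each library centred on its median, its 5 changes were 0.88, 0.62, 0.61, 0.53 and 0.36, and all were called. With quantile normalization they were smaller, at 0.37, 0.31, 0.27, 0.35 and 0.20, and the call at 24 h ended (limma adjusted p 0.0765).

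Ordered by mean level, WIND1 ran from 1 h through 12, 6, 3 and 24 h down to 0 h. Of the neighbours in that order only 24 h and 0 h differed beyond their spread (adjusted p 0.000337, limma), and the other 4 pairs had adjusted p between 0.566 and 0.926. The interval of the difference between 3 h and 1 h was -0.26 to 0.08 on the log2 scale. That pair was called with median centring (-0.25, limma adjusted p 0.00742).

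WIND2 was at 84.7, 122 and 94.1 RPKM in the 0 h libraries, at 56.1, 58.3 and 63.2 in those of 1 h, and at 34.7, 34.8 and 36.3 in those of 3 h. It was at 34, 36.3 and 39.5 RPKM in the 6 h libraries, at 53.5, 64.9 and 57.8 in those of 12 h, and at 49.2 and 44.5 in those of 24 h. All 14 later libraries lay below all 0 h libraries, and the 3 h and 6 h libraries lay below all others. These values rest on 402 to 2647 reads per library. At 3 h 18.3% of tested genes stood at or above its mean, against 5.66% at 0 h.

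At 3 h WIND2 averaged 35.2 ± 0.904 RPKM, against 100.2 ± 19.2 at 0 h (SD, n = 3 each), a change of -1.46 (SE 0.11, limma adjusted p 9.48e-09). At this time 39.3% of tested genes were called lower. The changes at 1, 6, 12 and 24 h were -0.73 (SE 0.11), -1.41 (SE 0.11), -0.75 (SE 0.11) and -1.07 (SE 0.12), with limma adjusted p between 1.42e-08 and 2.4e-05. The shares of tested genes called lower at 6, 12 and 24 h were 37.1%, 27.8% and 23.2%. With median centring the change at 1 h was -0.47 and was still called.

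WIND2 fell in 2 steps and was higher again at 12 h. Of the 3 epidermis markers 2 were called lower at every later time. Of all tested genes 54.7%, 39.3%, 37.1%, 27.8% and 23.2% were, at 1, 3, 6, 12 and 24 h. The summed epidermis level was 24.5 to 32.2 RPKM at 0 h and 13.6 to 17.6 RPKM at 1 h. It was 9.73 to 12 RPKM at 3 h and 7.49 to 9.09 RPKM at 6 h. At 12 h it was 6.57 to 12 RPKM, and at 24 h 9.18 to 11 RPKM. From 1 h to 3 h 2 of these markers were called lower and 1 higher. Against 0 h, 1, 2, 2, 3 and 2 of 4 phloem markers were called lower at the 5 times. Of 5 xylem markers 3, 1, 4, 4 and 5 were. The part of any of these markers in the WIND2 changes was not tested. The level of WIND2 at 3 h was lower than at 1 h by a change of -0.73 (SE 0.11, limma adjusted p 3.21e-05). In this step 22.2% of tested genes were called lower. The difference of 6 h from 3 h was 0.05 (SE 0.11, adjusted p 0.778, limma). At 12 h it was higher than at 6 h, with means of 58.7 ± 5.74 RPKM at 12 h and 36.6 ± 2.8 RPKM at 6 h (SD, n = 3 each) and a change of 0.67 (SE 0.11, limma adjusted p 0.000139, 32.1% of tested genes called higher). The change from 12 h to 24 h was -0.32 (SE 0.12, interval -0.58 to -0.06, limma adjusted p 0.0877). It was called with median centring (-0.36, adjusted p 0.0458, limma) and without 0 h replicate 2 (-0.32, adjusted p 0.0287, limma). By mean level WIND2 ran from 0 h through 1, 12, 24 and 6 h down to 3 h. In that order 1 h differed from 0 h (limma adjusted p 2.38e-05), and 24 h from 6 h (0.35, SE 0.12, limma adjusted p 0.0251, with 35.7% of tested genes called higher). The pairs 12 h and 1 h, 24 h and 12 h, and 6 h and 3 h were not called. Of these, only the interval of 24 h against 12 h left out 0.

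For WIND3 the 0 h libraries gave 13.1, 13.1 and 15.7 RPKM, the 1 h libraries 3.46, 6.01 and 3.94, and the 3 h libraries 14.5, 9.29 and 12.6. The 6 h libraries gave 9.98, 13.6 and 14 RPKM, the 12 h libraries 11.6, 15.1 and 14, and the 24 h libraries 30.2 and 28.6. The 1 h libraries lay below and the 24 h libraries above all others, and the remaining time points overlapped. The 1 h values rest on 49 to 86 reads, and the others on 134 to 653.

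At 1 h WIND3 averaged 4.47 ± 1.36 RPKM, against 14 ± 1.53 at 0 h (SD, n = 3 each), a change of -1.48 (SE 0.18, limma adjusted p 2.75e-06). WIND2 was also called lower at 1 h, as were 54.7% of all tested genes. At 3 h it was higher than at 1 h by 1.27 (SE 0.18, limma adjusted p 1.66e-05), as were 38% of tested genes. Against 0 h, the changes at 3, 6 and 12 h were -0.20, -0.16 and -0.04 (SE 0.18 each), with limma adjusted p of 0.329, 0.459 and 0.852 and intervals that together spanned -0.58 to 0.34.

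At 24 h WIND3 averaged 29.4 ± 1.17 RPKM (SD, n = 2), against 14 ± 1.53 at 0 h (n = 3), a change of 1.03 (SE 0.20, limma adjusted p 0.000392). At 12 h the change against 0 h was -0.04, so the rise was seen in the last interval only. The level at 24 h exceeded that at 12 h, 13.6 ± 1.78 RPKM (SD, n = 3), by a change of 1.07 (SE 0.20, limma adjusted p 0.00152), and WIND3 was the one WIND gene called higher in this step, as were 10.3% of all tested genes. Markers of xylem moved over the same interval in the other direction. All 5 were called lower at 24 h than at 12 h, as were 8.11% of all tested genes, and their summed level was 383 to 398 RPKM at 0 h, 302 to 363 RPKM at 12 h and 105 to 128 RPKM at 24 h. Their part in the WIND3 change was not tested. By mean level WIND3 ran from 24 h through 0, 12, 6 and 3 h down to 1 h, and of the neighbours only 24 h and 0 h, and 3 h and 1 h, differed beyond their spread.

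The 250 bases before the annotated start of each gene were searched on both strands for the W-box, the site of WRKY factors (TTGACC or TTGACT), the G-box (CACGTG), the GCC-box (GCCGCC), the DRE core (ACCGAC or GCCGAC) and the rapid stress response element RSRE (CGCGTT). Among 27443 promoters of protein-coding genes, 28.4% held a W-box, 6.49% a G-box, 1.87% a GCC-box, 7.09% a DRE core and 2.59% an RSRE. WIND3 held 3 W-boxes, whose first bases lie 141, 121 and 100 bases before the start, and at least 3 were found in 1.06% of all promoters. None of the 3 overlapped another, but the bases that follow them are nearly alike. They lie in a short repeat and are not independent occurrences. WIND4 held a W-box and an RSRE that reads on both strands, which was counted as 2 overlapping sites. These letters were not found in the windows of WIND1 and WIND2. The WIND3 window is printed because of its repeated W-boxes, which are in capitals and read as AGTCAA on this strand (TAIR10.1, minus strand, chr1:13456337-13456586, written 5′ to 3′ towards the gene).
WIND3: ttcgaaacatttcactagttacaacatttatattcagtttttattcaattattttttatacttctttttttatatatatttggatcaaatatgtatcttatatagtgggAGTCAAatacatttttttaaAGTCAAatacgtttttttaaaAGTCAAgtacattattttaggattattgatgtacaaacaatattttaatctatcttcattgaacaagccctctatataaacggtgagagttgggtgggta
A match of letters is a description of the sequence and does not show that a factor binds there.

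WIND4 was close to the limit of detection. It had 33 reads in all 17 libraries together, with 2, 1 and 1 in the 0 h libraries, 2, 0 and 1 in those of 1 h, 2, 0 and 4 in those of 3 h, 3 in each of 6 h, 3, 3 and 1 in those of 12 h, and 3 and 1 in those of 24 h. In RPKM the libraries ranged from 0 to 0.611, and 16 of the 17 libraries held 3 reads or fewer, the number that a count of 0 allows. The 3 reads correspond to 0.173 RPKM in 0 h replicate 1 and to as much as 0.466 RPKM at 1 h, counting error only. WIND4 did not pass the filter. With no filter, no comparison with 0 h was called for it, and the lowest limma adjusted p was 0.0572, at 6 h. A change of WIND4 was not detectable at this depth.

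**Figure D2:**
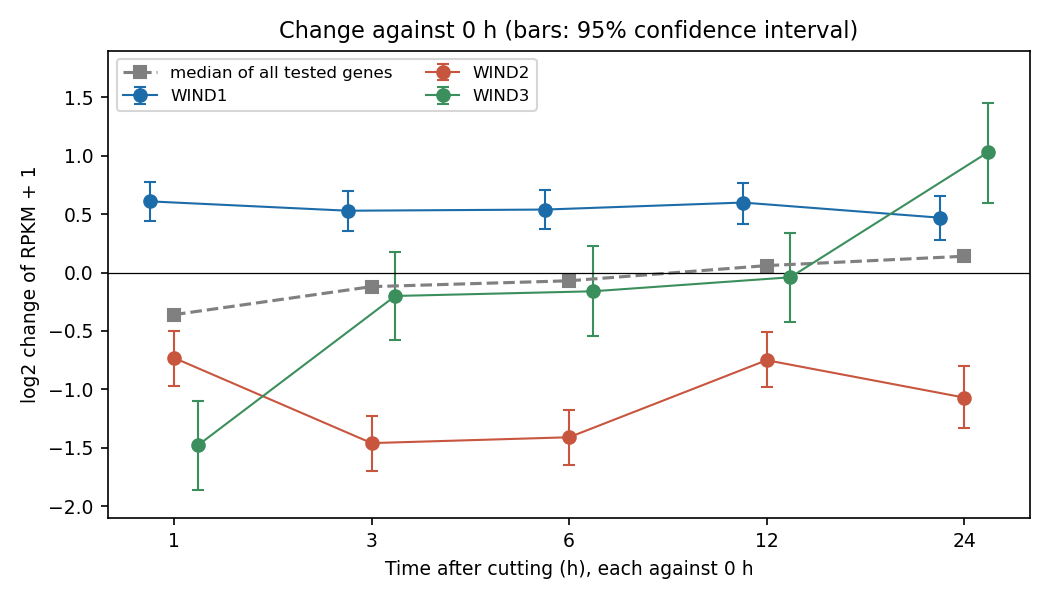
Change of log2(RPKM + 1) against 0 h (vertical axis) at each later time in hours for WIND1, WIND2 and WIND3, with 95% confidence intervals from limma, and the median change of all tested genes (grey squares). WIND1 lies between 0.47 and 0.61, WIND2 between -1.46 and -0.73, and WIND3 stands at -1.48 at 1 h and at 1.03 at 24 h.

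Within a library the ratio of WIND1 to WIND2 does not change when the library is scaled by a single factor. Quantile normalization is not of that kind. It was 2.07, 1.71 and 1.83 in the 0 h libraries, 5.54, 4.59 and 4.29 in those of 1 h, and 7.91, 7.7 and 7.09 in those of 3 h. It was 7.89, 7.26 and 6.96 in the 6 h libraries, 4.81, 4.5 and 5 in those of 12 h, and 5.1 and 5.83 in those of 24 h. All 14 later libraries lay above all 0 h libraries. The difference of the mean log2 ratio from 0 h was 1.36, 2.02, 1.98, 1.36 and 1.55 at 1, 3, 6, 12 and 24 h. In the exact two-sided permutation test each comparison had p = 0.1 (adjusted over the 5 comparisons, also 0.1), which is the smallest p that 3 against 3 or 2 against 3 libraries gave here, so this test cannot reach the threshold.

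The 4 levels summed to 306.8 to 372.3 RPKM in the later libraries, against 272.8 to 342.9 RPKM at 0 h. These ranges overlap, while the make-up of the sum moved. The share of WIND1 was 60.6% to 64.1% at 0 h, 80.1% to 83.8% at 1 h, 83.9% to 85.9% at 3 h, and 75.9% and 78% in the 24 h libraries. The share of WIND2 was 10.7% to 11.8% at 3 h, against 31% to 35.5% at 0 h. WIND3 made up 8.6% and 9.1% in the 24 h libraries, against 0.9% to 1.8% at 1 h.

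**Figure D3:**
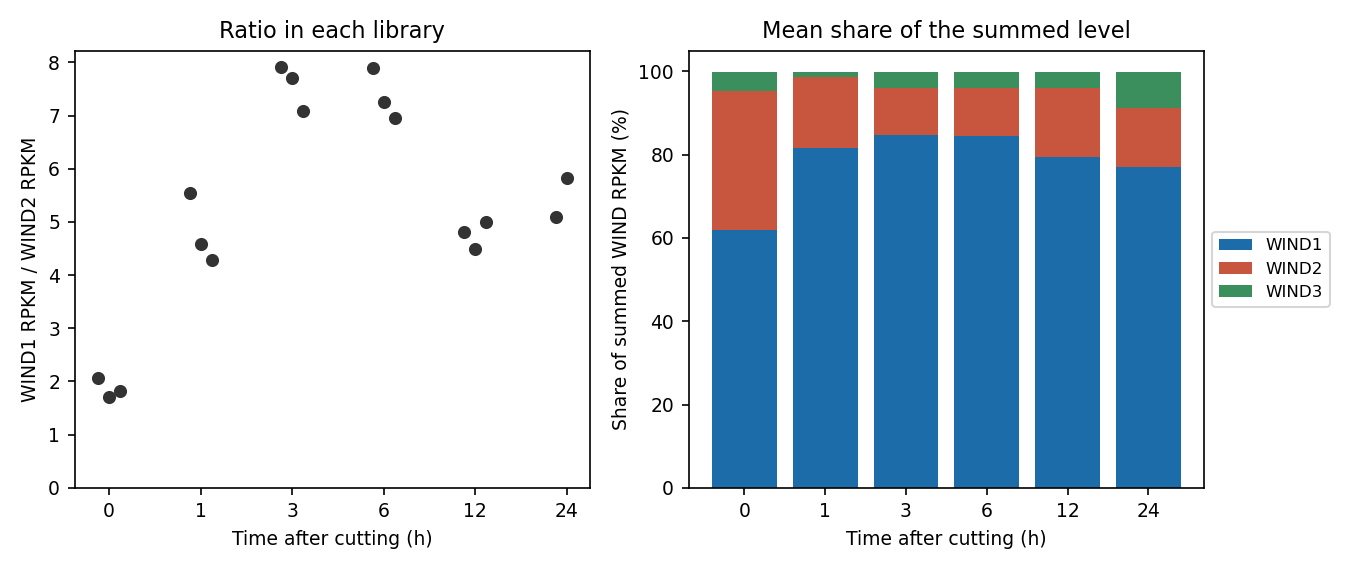
Left, the ratio of WIND1 to WIND2 RPKM in each library (points, axis from 0) by time after cutting in hours. Right, the mean share (%) of WIND1, WIND2 and WIND3 in the summed RPKM of the WIND genes, with WIND4 too low to draw. The ratio stands at 4.29 or more in every later library, against 1.71 to 2.07 at 0 h.

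The other 6 genes of the DREB A-6 subfamily all passed the filter, and at 1 h 4 were called higher and 2 lower, against 18.2% and 54.7% of all tested genes. ERF053, a gene of drought responses, averaged 6.79 ± 1.92 RPKM at 1 h, against 1.32 ± 0.302 at 0 h (SD, n = 3 each; change 1.73, SE 0.18, limma adjusted p 4.21e-07). It was called lower at 3, 6, 12 and 24 h and had 0 reads in both 24 h libraries, at least 6.64-fold lower than its 0 h mean when held at 3 reads per library. ERF054 was at 5.3 ± 0.849 RPKM at 1 h, against 0.454 ± 0.119 at 0 h (change 2.11, SE 0.23), and ERF056 at 2.12 ± 1.06 RPKM, against 0.464 ± 0.0474 (change 1.03, SE 0.21, on 10 to 31 reads at 1 h). Neither was called at 3, 6, 12 or 24 h. ERF056 reached 1 RPKM only in libraries of 1 h. It passed the filter through the time at which it was called higher, so its place among the 4 is not independent of the filter. The means of ERF053, ERF054 and ERF056 were all highest at 1 h.

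ERF060 was called higher at 1, 3, 6 and 12 h, as WIND1 was, and averaged 56 ± 3.55 RPKM at 6 h, against 26.3 ± 2.43 at 0 h (SD, n = 3 each; change 1.07, SE 0.10, limma adjusted p 1.15e-07). At 24 h its change was 0.16 (SE 0.11, adjusted p 0.222, limma). ERF061 was called lower at every later time, as WIND2 was, and reached 5.09 ± 1.51 RPKM at 6 h, against 31.2 ± 2.12 at 0 h (change -2.43, SE 0.15, limma adjusted p 1.26e-09). ERF062 was called lower at 1, 3 and 6 h and stood at 5.78 ± 1.23 RPKM at 24 h, against 3.97 ± 0.607 at 0 h (change 0.44, SE 0.23, limma adjusted p 0.112). Its lowest mean was at 1 h and its highest at 24 h, as in WIND3. Over the subfamily without the WIND genes, 1, 1, 1 and 0 of 6 were called higher and 3, 3, 2 and 2 lower at 3, 6, 12 and 24 h, with median changes of -0.58, -0.42, -0.20 and -0.34. Of all tested genes 27.6%, 30.2%, 34.4% and 36.2% were called higher and 39.3%, 37.1%, 27.8% and 23.2% lower at these times, with median changes of -0.12, -0.07, 0.06 and 0.14. The median change of the 6 genes at 1 h was 0.90, against -0.36 over all tested genes.

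**Figure D4:**
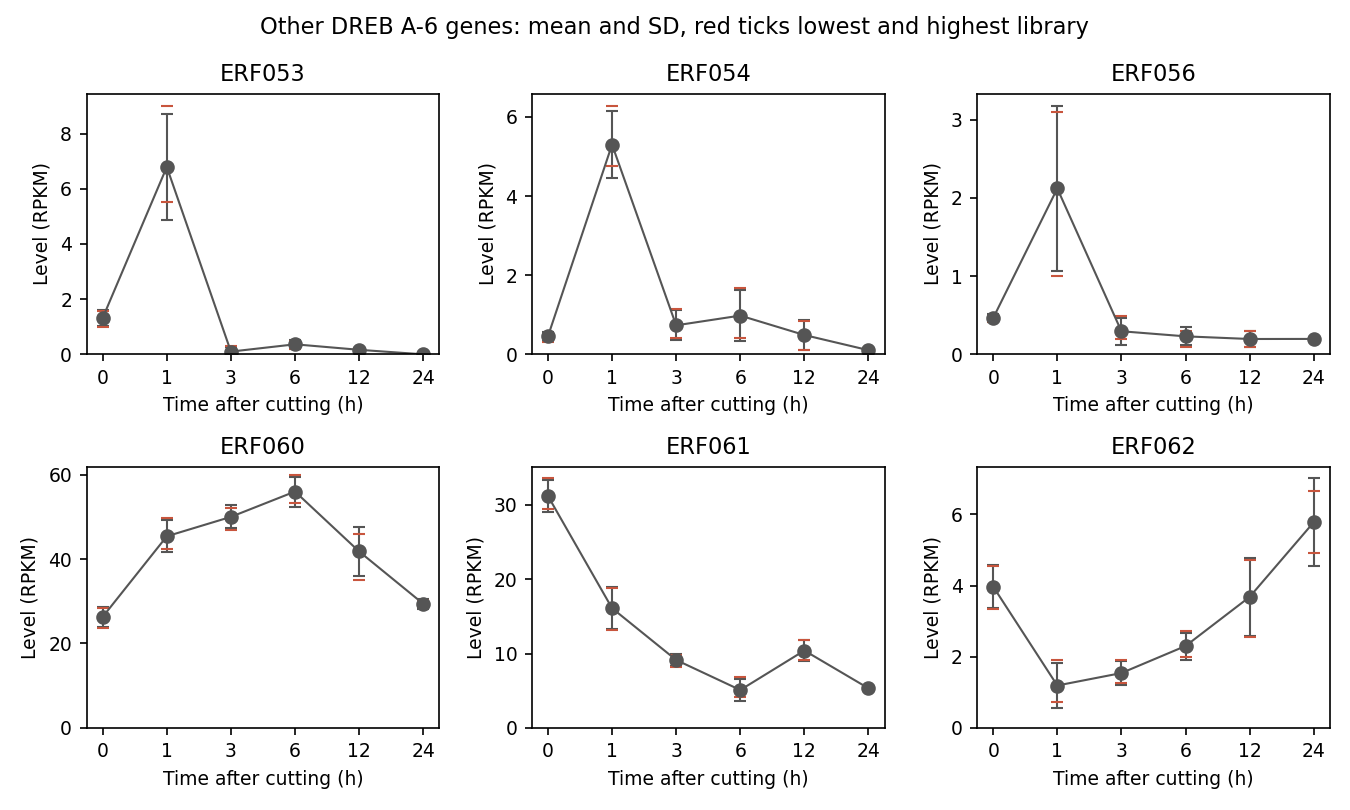
Mean level in RPKM (axis from 0, own scale in each panel) with SD bars of the other 6 DREB A-6 genes by time after cutting in hours, with red ticks at the lowest and highest library. ERF053, ERF054 and ERF056 are high at 1 h, ERF060 is highest at 6 h, ERF061 is highest at 0 h, and ERF062 is lowest at 1 h.

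ESR1, the direct target of WIND1, stayed near the limit of detection. It had 0 reads in all 3 libraries at 0 h, 0 or 1 read per library at 1 h and 3 h, 1 or 2 at 6 h, 1 to 3 at 12 h and 4 in each library at 24 h. It did not pass the filter, and no fold change is given for it. Of 16 listed regulators of callus and regeneration 11 passed the filter, and ESR2, LEC1, LEC2 and BBM were also below it. At 1, 3, 6, 12 and 24 h, 9, 9, 9, 8 and 8 of the 11 were called higher and 0, 0, 1, 1 and 2 lower, with median changes of 0.96, 1.15, 0.94, 1.14 and 0.96. Over all tested genes 18.2%, 27.6%, 30.2%, 34.4% and 36.2% were called higher and 54.7%, 39.3%, 37.1%, 27.8% and 23.2% lower, with median changes of -0.36, -0.12, -0.07, 0.06 and 0.14. The largest rises were those of 2 other AP2/ERF genes, RAP2.6 at 3 h (763.7 ± 83.2 RPKM at 3 h, against 5.59 ± 2.32 at 0 h; change 6.91, SE 0.18) and ERF115, a regulator of regeneration, at 1 h (change 3.74, SE 0.18). The largest falls were those of LBD29 at 6 h (-1.04, SE 0.22) and LBD18 at 24 h (-0.83, SE 0.24), both LOB-domain factors downstream of auxin. These falls rest on 2 to 4 reads per library for LBD29 at 6 h and on 2 and 7 reads for LBD18 at 24 h. LBD29 was called higher at 1 h (1.27, SE 0.22). LBD17 was among the genes called higher at 1, 3 and 6 h. At 0 h it stayed under 1 RPKM, on 1 to 4 reads per library. It passed the filter only through later libraries, so its part in these counts is not independent of the filter.

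Of 13 response regulators of cytokinin signalling 11 passed the filter, and at 1 h 1 (ARR7) was called higher and 8 lower, with a median change of -1.06. Of all tested genes 18.2% were called higher and 54.7% lower at 1 h, with a median change of -0.36. ARR9 and ARR8, type-A regulators that dampen the cytokinin response, had the largest falls, both at 1 h. ARR9 averaged 13.6 ± 0.357 RPKM at 1 h, against 66.2 ± 3.64 at 0 h (change -2.20, SE 0.07, limma adjusted p 8.39e-13), and the change of ARR8 was -1.78 (SE 0.08). All 11 were called higher at 3 h than at 1 h, a step in which 38% of tested genes were. ARR7, also type A, had the largest rise, 1.19 at 3 h (SE 0.17), followed by ARR16, 1.03 at 12 h (SE 0.27). In libraries of 0 h and 1 h ARR16 stayed under 1 RPKM, and it passed the filter through later ones. Its rise rests on 3 to 10 reads per library at 0 h and 10 to 15 at 12 h. ARR1 and ARR12, type-B activators needed for the action of WIND1, were both called lower at 1 h (-0.98, SE 0.08, and -0.48, SE 0.09). ARR1 stayed lower to 24 h, whereas ARR12 was called higher at 3, 6 and 24 h by 0.20 to 0.25. Against 0 h the list had 3 higher and 5 lower members at 3 h, then 3 and 4 (6 h), 6 and 2 (12 h), and 3 and 2 (24 h). With median centring the counts at 24 h were 1 and 2. Over all tested genes 27.6%, 30.2%, 34.4% and 36.2% were called higher and 39.3%, 37.1%, 27.8% and 23.2% lower at 3, 6, 12 and 24 h. The counts of the list at 3, 6 and 24 h were close to this background.

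All 9 listed antioxidant enzymes of the chloroplast, among them 2CPA, the peroxiredoxin gene studied as a target of RAP2.4a, passed the filter. At 1, 3, 6, 12 and 24 h, 0, 1, 3, 5 and 6 were called higher and 5, 7, 4, 1 and 1 lower, with median changes of -0.18, -0.53, -0.26, 0.55 and 0.73. At the same times 18.2%, 27.6%, 30.2%, 34.4% and 36.2% of all tested genes were called higher and 54.7%, 39.3%, 37.1%, 27.8% and 23.2% lower, so that the lower count at 1 h and the counts at 6 h were close to the background. 2CPA averaged 61.5 RPKM at 0 h, 41.6 RPKM at 1 h and 102.9 RPKM at 24 h. It was called lower at 1, 3 and 6 h (changes -0.55, -0.71 and -0.26) and higher at 12 and 24 h (0.55 and 0.73, SE 0.08 to 0.09). WIND3 was also called lower at 1 h and higher at 24 h, and it was not called at 3, 6 or 12 h. From 1 h to 3 h the change of WIND3 was 1.27 and that of 2CPA was -0.16 (SE 0.08, adjusted p 0.102, limma). A link between WIND3 and 2CPA was not tested. The largest rises were those of SAPX, a stromal ascorbate peroxidase, at 6 h (1.67, SE 0.08) and CSD2, a copper/zinc superoxide dismutase, at 24 h (1.58, SE 0.07). The largest falls were those of GPX1 at 3 h (-2.34, SE 0.14) and PRXIIE at 1 h (-0.92, SE 0.09). All comparisons with 0 h share the same 3 libraries, so the calls at different times are not independent.

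Likeness in course was measured as Pearson's r of log2(RPKM + 1) over the 17 libraries, which fall into 6 time points, among 5309 named genes whose time point means differed by at least 2-fold after adding 1. It is a description, and the points of a time point share their hour and, at 24 h, a greater depth. Closest to WIND1 were CYTC-2, a cytochrome c gene (r = 0.927), WRKY23, a transcription factor gene of auxin responses (0.925), and GID1B, a gibberellin receptor gene (0.925). GID1B averaged 37.9 to 61 RPKM at the later times, against 9.63 RPKM at 0 h. Closest to WIND2 were ACL5, the thermospermine synthase that restrains xylem differentiation (0.962), OBP4, a DOF factor (0.962), and E1 ALPHA, a subunit of pyruvate dehydrogenase (0.961). ACL5 averaged 10.7 RPKM at 3 h, against 171 RPKM at 0 h. Closest to WIND3 were SPC98 of the gamma-tubulin complex (0.936), SUVR5, a histone methyltransferase gene (0.934), and ARI2, a ubiquitin ligase gene (0.926). SUVR5 averaged 5.63 RPKM at 0 h, 3.41 RPKM at 1 h and 9.03 RPKM at 24 h. With Spearman's rho ACL5 and E1 ALPHA stayed among the closest 3 genes of WIND2, and none of the genes named for WIND1 and WIND3 did. With Pearson's r over the 6 time point means, CYTC-2 and GID1B stayed among the closest 3 genes of WIND1 and SUVR5 among those of WIND3, and none of the genes named for WIND2 did.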

How the data were processed

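Per the labels' protocols, RNA was extracted with a Qiagen kit and made into stranded mRNA libraries. The authors deposited 1 table with a column per library, read here as RPKM, that is, reads which the authors scaled by gene length and by the library's mapped reads. Its header names no unit, and this reading rests on low values that move in whole steps fixed for each gene and library, and on unequal column totals. The genome build is TAIR10 per the submitters' processing notes. The aligner and the counter are not named in those notes. Whole reads were recovered from these steps for 24834 of 24834 genes above 0 (tolerance 0.0005 reads). Gene lengths were searched for whole reads and the smallest that gave them was taken, a weak check for genes with few reads. The length found equalled the RefSeq gene length for 1330 genes. For WIND1 it was 1825 bases, against a gene length of 2136, and for WIND2 1507 against 1631. For WIND3 it was 1836 bases, against 1841, and for WIND4 834 against 1165. Ratios and shares between these genes depend on the lengths used. The totals rest on 231 to 374 genes per library.

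Genes that reached 1 RPKM in 2 or more libraries were tested (19656 of 28642, 3 of the 4 WIND genes). Values were transformed as log2(RPKM + 1), and limma 3.58.1 under R 4.3.3 fitted time point as a factor over the 17 libraries, with trend and robust moderation, with p-values adjusted over all tested genes and called at 0.05. The procedure was run on simulated data in which a small share of genes changed, up and down in near equal number. Such data cannot speak for a comparison in which most genes are called, as at 1 h. All 15 pairs of time points were fitted. The plan held a branch for counts, which was not used. Members and lists were chosen with earlier results of these data known. Named genes were the WIND genes, their subfamily, ESR1, the 2 largest called rises and falls of each other list, and the 3 closest genes of each tested member. Genes named beyond that rule (2CPA, the known partners ARR1 and ARR12, and genes below the filter) were chosen after their values were seen. Replicate numbers were not taken as pairs. Sequences and gene positions are from RefSeq TAIR10.1, aligned with MAFFT 7.526. The nuclear chromosomes of TAIR10.1 are those of TAIR10. Proteins were not used here.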

Additional observations from a re-analysis of the deposited data

How the results depend on the processing

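For WIND1, WIND2 and WIND3, 27 changes (5 against 0 h and 4 between neighbouring times for each gene) were recomputed under 10 other settings. These were pseudocounts of 0.1 and 0.5, no filter, a filter of RPKM at least 5 in at least 3 libraries, median centring, quantile normalization, the replicate block, plain moderation, a fit of the compared time points alone and, chosen after seeing the data, voom on recovered reads. Changes near 0 could switch sign without being called, as that of WIND1 at 12 h against 6 h did with median centring (0.05 and -0.08). Of the 270 values 267 kept their side of the threshold. The exceptions were WIND1 at 24 h against 0 h with quantile normalization (0.20, adjusted p 0.0765) and, with median centring, WIND1 at 3 h against 1 h (-0.25) and WIND2 at 24 h against 12 h (-0.36). Why they moved was not tested.

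Leaving out each library in turn changed 1 call, that of WIND2 at 24 h against 12 h, which ranged from -0.39 to -0.24 and passed without 0 h replicate 2 (-0.32). Against 0 h, WIND1 ranged from 0.55 to 0.70 at 1 h and 0.42 to 0.55 at 24 h, WIND2 from -0.84 to -0.59 at 1 h and -1.58 to -1.32 at 3 h, and WIND3 from -1.67 to -1.34 at 1 h and 0.98 to 1.11 at 24 h.

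Libraries with the same replicate number were not taken as pairs, since the labels give no shared batch. Of 40 correlations of their deviations 16 exceeded 0.1 (-0.17 to 0.34, median 0.07). For libraries with different numbers 12 of 80 did (-0.31 to 0.2, median -0.05). Of the 17 libraries 13 correlated best with their own number, and whether equal numbers share a batch was not tested. With the replicate block no WIND call changed, with WIND1 at 0.61, WIND2 at -0.73 and WIND3 at -1.48 at 1 h, and 3639 genes were higher and 10912 lower at 1 h. With median centring 6673 genes were lower at 1 h, in place of 10755.

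Of 1080 recomputed counts of list members 21 moved by more than 1.5 times, all from counts of 6 or fewer. The single cytokinin rise at 1 h became 0 without 0 h replicate 1 or 2 or 1 h replicate 2 or 3, the 6 at 12 h became 3 without 0 h replicate 2, the 3 at 6 h became 1 without 6 h replicate 3 and 5 with quantile normalization, and the 3 at 24 h became 1 with median centring or without 0 h replicate 1 or 2 or 24 h replicate 2. The stricter filter left 2 higher and 1 lower subfamily gene at 1 h and 0 lower callus regulators at 6, 12 and 24 h. At 1 h 2 antioxidant genes were higher with median centring and 1 with quantile normalization. Callus regulators had 1 lower at 3 h without 0 h replicate 3 and 1 at 24 h without 24 h replicate 1, and the subfamily had 2 higher at 6 h without 6 h replicate 2.

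By median level WIND1 was highest at 12 h, and WIND3 ran from 24 h through 12, 6, 0 and 3 h down to 1 h, with WIND2 in the same order as by mean. Depth limits WIND4 and ESR1, at 0 to 4 reads per library.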
